A study of Homo sapiens with 8 samples.

Results

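MTUS1 and FGL1 are neighbouring genes on the short arm of human chromosome 8, and a 0.5 Mb window around them, from 101 kb below MTUS1 to 147 kb above FGL1 (hg19), was followed through H3K27ac peak lists of CEBPB knockdown and control cells. Its members are all peaks that overlap the window. They were 163 of the 186774 peaks on chromosomes 1 to 22 and X over the 4 lists: 30 with siRNA-1, 37 with siRNA-2, 51 in control 1 and 45 in control 2. The window was picked because its acetylated cluster had been seen to be shorter after knockdown in these same lists. Differences between knockdown and control libraries are therefore given as a description, without a test.

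The cells were A549, an established human lung adenocarcinoma line in which the antioxidant regulator NRF2 is constitutively active. Knockdown cells received CEBPB siRNA-1 or CEBPB siRNA-2 (1 library each) and control cells a control siRNA (2 libraries); all were harvested 48 h after transfection. All 4 libraries came from an antibody against H3K27ac. The 2 siRNA libraries stand as knockdown replicates, so the spread between them also holds any difference between the siRNAs. The labels do not say that the controls were separate cultures, so the spread between those may be technical. How far CEBPB itself was lowered was not measured by these libraries, and the line was not checked against marker genes here.

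H3K27ac is an acetylation of histone H3 that marks active promoters and enhancers, and long stretches of it often lie around genes that a cell transcribes strongly. CEBPB encodes C/EBPβ, a basic leucine zipper factor known in liver for its part in acute-phase gene induction. MTUS1 encodes a set of microtubule-associated proteins, one of which binds the angiotensin II type 2 receptor, and has been studied as a candidate tumour suppressor. FGL1 encodes a secreted member of the fibrinogen family that is made mainly by the liver and is a ligand of the inhibitory T cell receptor LAG-3. Both genes are transcribed toward lower coordinates, so each starts at its upper end: MTUS1 at about 17.658 Mb and FGL1 at about 17.753 Mb. In RefSeq's gene order (GRCh38.p14) PDGFRL is the next protein-coding gene with a name below MTUS1, and PCM1 the next above FGL1; neither was placed on the peaks.

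For each peak the lists give a fold enrichment at the summit, on a linear scale, and a −log10 q, the false discovery rate of the peak caller on a log scale; both are the authors' own values. Called lengths were computed from the peaks' positions.

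After CEBPB knockdown less of the window was called as acetylated with both siRNAs, and most of the missing length lay inside MTUS1. Called length, the number of bases covered by peaks, was 77.5 kb (siRNA-1) and 82.6 kb (siRNA-2), against 118.0 kb in control 1 and 108.5 kb in control 2. The knockdown libraries lay below both controls: they averaged 80.0 ± 3.62 kb and the controls 113.3 ± 6.73 kb (SD, n = 2 each), a difference of -33.2 kb, larger than the spread within either group. In such bulk libraries, fewer acetylated cells and less acetylation per cell cannot be told apart. Within the numbers that the labels share, siRNA-1 was 40.5 kb shorter than control 1 and siRNA-2 was 25.9 kb shorter than control 2. On the rest of chromosomes 1 to 22 and X the same lists did not separate, with 70358 kb and 61602 kb after knockdown against 67781 kb and 61959 kb in the controls. The window held 0.110% and 0.134% of all called bases with siRNA-1 and siRNA-2, against 0.174% and 0.175% in controls 1 and 2.

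**Figure D1:**
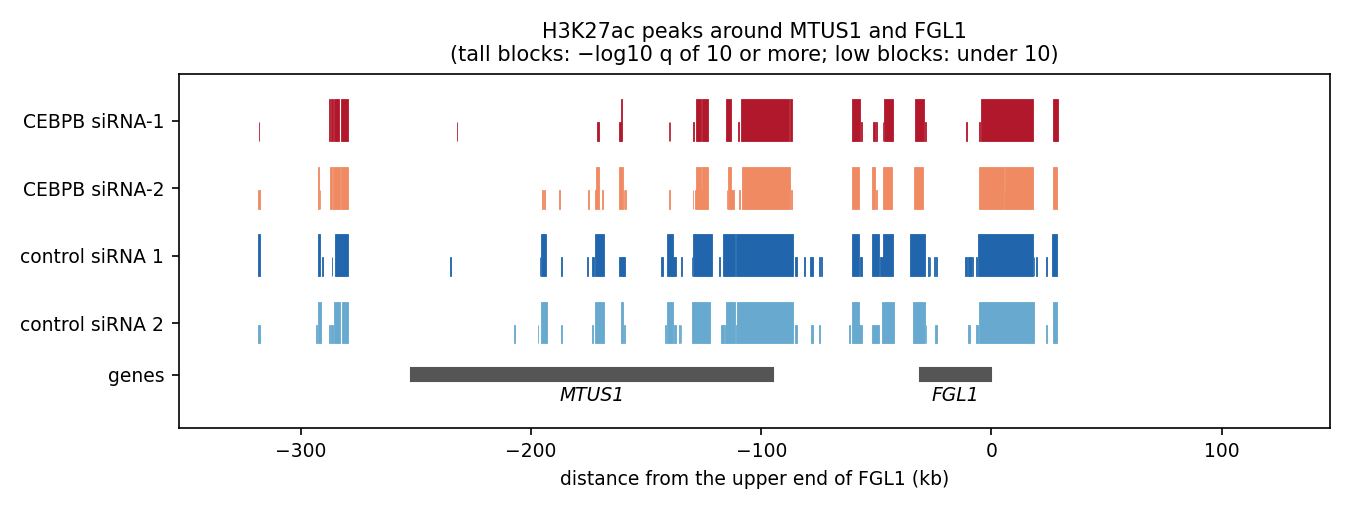
H3K27ac peaks of the 4 libraries along the 0.5 Mb window, by distance in kb from the upper end of FGL1; tall blocks are peaks with a −log10 q of 10 or more and low blocks weaker peaks, and grey bars are the genes. The 2 long blocks at the starts of MTUS1 and FGL1 stand in all 4 libraries. Several blocks inside MTUS1 are shorter or absent in both knockdown libraries. Others there are not shorter, and a few weak ones are called with 1 siRNA only.

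Of 193 windows of 0.5 Mb with a mean of 50 kb or more called over the 4 libraries, 31.6% had both knockdown lengths below both controls, and 24.4% had both above. By the ratio of knockdown to control length, 70.7% here, the window ranked 13th from the lowest of these, where the median was 97.4% and the lowest 53.2%. This rank describes how the window was picked and supports nothing further. The 0.5 Mb stretches on both sides of the window are sparse. Below it, called length was 3.03 kb (siRNA-1) and 5.53 kb (siRNA-2), against 5.59 and 6.04 kb in controls 1 and 2. Above it there was 1 peak in each knockdown library, over 1.54 kb and 1.72 kb, against 4 peaks in each control, over 4.97 kb and 4.64 kb. Both flanks thus also had less called length in both knockdown libraries than in both controls, with only a few peaks behind it. The share of such stretches over the series was not computed for stretches this sparse. In the lower flank siRNA-2 was nearly level with control 1, and the siRNAs differed from each other by 2.49 kb. Peaks there numbered 4 (siRNA-1) and 8 (siRNA-2), against 5 and 7 in controls 1 and 2.

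The 5 intervals set by the gene ends differed in how much of their acetylation was still called. Inside MTUS1, 24.5 kb and 28.0 kb were called with siRNA-1 and siRNA-2, against 47.0 kb and 43.2 kb in controls 1 and 2. This gene body accounted for 56.7% of the window's difference. Between the genes, called length was 19.3 kb and 19.4 kb after knockdown, against 28.2 kb and 25.7 kb in the controls. Inside FGL1 it was 6.85 kb and 6.44 kb after knockdown, against 12.52 kb and 9.61 kb in the controls. In all 3 of these intervals the groups did not overlap. Above FGL1, where the long region at the FGL1 start continues, they did not overlap either, but the values were close: 20.2 and 19.7 kb after knockdown and 21.7 and 20.9 kb in the controls. Below MTUS1 the groups overlapped, with 6.74 kb and 9.07 kb after knockdown against 8.67 kb and 9.11 kb. How often intervals of such lengths show groups that do not overlap was not computed over the series. As the window was picked on this contrast, nothing is read from how many of the 5 intervals did so.

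**Figure D2:**
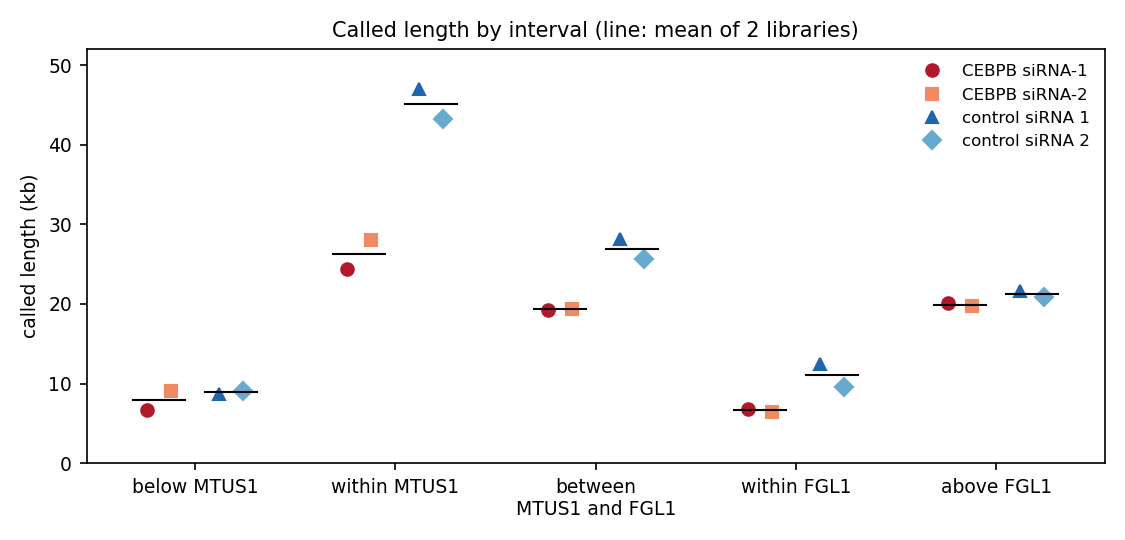
Called length in kb in the 5 intervals of the window, 1 point per library with the 2 CEBPB siRNA libraries left of the 2 control libraries; black lines are means of 2 libraries. Inside MTUS1 the knockdown points lie at 24.5 and 28.0 kb and the control points at 47.0 and 43.2 kb.

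Merged across the lists wherever peaks overlapped by 1 bp or more, the peaks formed 56 regions. Of these, 16 were called in all 4 libraries, 9 in both controls and with neither siRNA, 4 in both controls and with 1 siRNA, and 1 in 1 control and 1 knockdown library. A further 23 were called in 1 control only and 3 in 1 knockdown library only. Both siRNAs together had no region that the controls lacked. Of the 29 regions shared by the controls, 9 thus had no peak after knockdown, where the share over the whole series was 13.3%. Of the 16 regions shared by the siRNAs, 0 had no peak in the controls, where that share was 13.6%. Regions called in 1 library only were 26 of 56 here and 33.6% of all merged regions. As the window was picked on this contrast, nothing is read from these shares.

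Most of the lost length came from regions that were still called. The 16 regions called in all 4 libraries covered 76.4 kb and 79.4 kb with siRNA-1 and siRNA-2, against 100.1 kb and 96.9 kb in controls 1 and 2, which is 62.0% of the window's difference. The 9 regions called in both controls and with neither siRNA held 5.25 kb in control 1 and 4.31 kb in control 2, 14.4% of it. Regions called in 1 control only made up another 14.3%, and the 4 regions missing with 1 siRNA 9.97%. Base by base, 100.5 kb was called in both controls, of which siRNA-1 retained 72.9% and siRNA-2 76.9%, and 19.4 kb, or 19.3%, was called with neither. Over chromosomes 1 to 22 and X these shares were 81.5%, 79.8% and 12.4%, so the siRNA-2 share in particular was near that of the series. Of that 19.4 kb, 13.8 kb lay in the 16 regions called in all 4 libraries. Only 0.341 kb, or 0.474% of what both siRNAs had, was called in neither control, all of it below MTUS1; over the series that share was 12.6%. Of what both controls had, siRNA-1 lacked 27.3 kb and siRNA-2 lacked 23.2 kb; both siRNAs were set against the same controls.

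**Figure D3:**
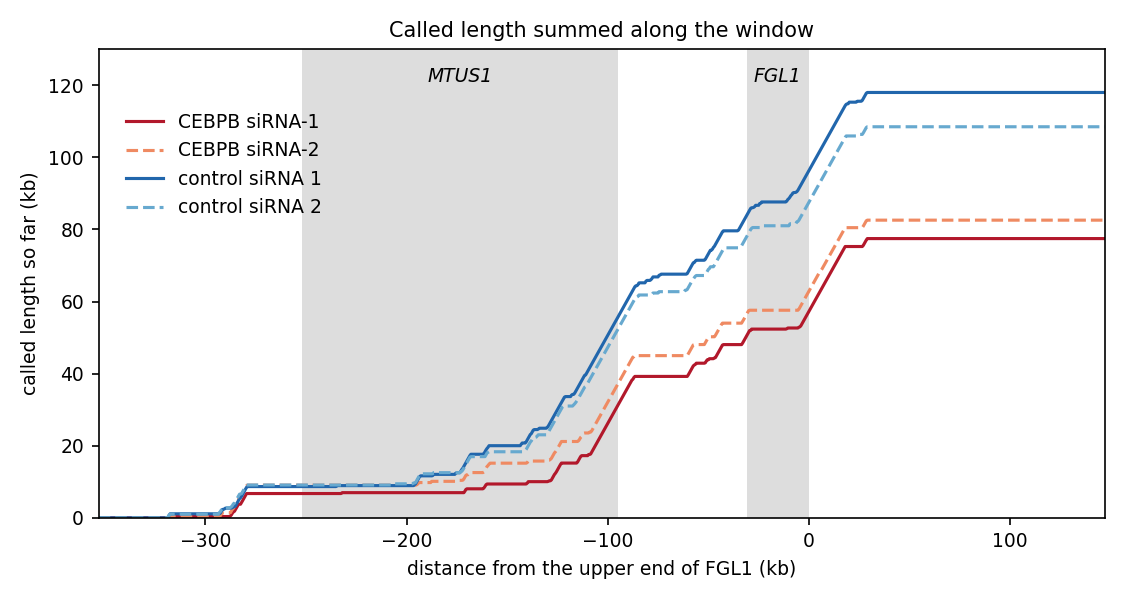
Called length summed from the lower to the upper edge of the window, in kb, by distance from the upper end of FGL1, 1 line per library; grey bands are the genes. The lines part inside MTUS1 and end at 77.5 and 82.6 kb for the CEBPB siRNA libraries and at 118.0 and 108.5 kb for the control libraries.

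The longest peaks of the window lay over the starts of both genes and remained called in every library. The region at the MTUS1 start (chr8:17641868-17666946) reached from inside the gene past its upper end. Called length in it was 21.98 kb (siRNA-1) and 21.46 kb (siRNA-2), against 24.86 kb in control 1 and 24.97 kb in control 2. The groups did not overlap, and knockdown length was 87.2% of control length. Its longest peak was 20.7 kb and 20.8 kb wide after knockdown, against 24.9 kb and 24.5 kb in the controls. By width these peaks ranked 58th, 33rd, 27th and 20th in the lists of siRNA-1, siRNA-2, control 1 and control 2, out of at least 45537 peaks each. Both edges were further in with the siRNAs. The large peak began at 17644380 and 17644697 with siRNA-1 and siRNA-2, against 17641899 and 17642403 in controls 1 and 2. It ended at 17665072 and 17665509 with siRNA-1 and siRNA-2, against 17666757 and 17666946 in the controls. Small separate peaks of 0.252 to 0.966 kb lay outside the large peak in both knockdown libraries, on either side of it. Control 2 also had a separate peak, of 0.424 kb, just below its large peak.

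The position of the highest enrichment within the MTUS1 start region did not follow the treatment. The summit lay 1.29 kb above the upper end of MTUS1 with siRNA-1 and 0.160 kb above it with siRNA-2. It lay 0.077 kb above that end in control 1 and at -11.2 kb, inside the gene, in control 2. Gene ends are known here to the nearest 1 kb only.

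The region at the FGL1 start (chr8:17747147-17771632) was the strongest of the window in every library by its −log10 q, and its length differed least of the long ones. It had 22.6 kb (siRNA-1) and 22.9 kb (siRNA-2) called, against 24.3 kb in control 1 and 23.7 kb in control 2. Knockdown length was 94.7% of control length, and the groups did not overlap. By −log10 q its strongest peak stood at percentiles 99.951 and 99.803 of the lists of siRNA-1 and siRNA-2, and at 99.991 and 99.952 of those of controls 1 and 2. With siRNA-2 the region was broken by short gaps into peaks of 10.8 kb, 0.221 kb and 11.9 kb, with fold enrichments of 56.6, 3.92 and 47.1.

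The FGL1 start region had a pair of centres. The siRNA-2 list placed summits of its 2 long peaks 1.22 kb and 12.9 kb above the upper end of FGL1. In the other libraries the region was 1 long peak, and its single summit fell on one or the other centre. It lay 12.9 kb above the gene end with siRNA-1, against 1.18 kb above it in control 1 and 12.8 kb above it in control 2. The highest centre thus differed between the siRNAs and between the controls. The whole region stretched from inside FGL1 across its start into the interval above the gene.

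Several regions inside MTUS1, below its start region, were shorter after knockdown. The nearest (chr8:17635723-17641548) had 2.06 kb called with siRNA-1 (1 peak) and 2.36 kb with siRNA-2 (3 peaks), against 5.29 kb in control 1 (1 peak) and 5.28 kb in control 2 (4 peaks). It was 1 of 3 regions of the window in which both knockdown lengths were under 0.5 of the shorter control length; over the series 2.25% of the regions called in all 4 libraries were so. The next (chr8:17622731-17631641) had 5.16 kb and 5.43 kb called after knockdown, against 8.78 kb and 7.98 kb in the controls. It was called as 3 peaks (siRNA-1) and 5 peaks (siRNA-2), against 2 peaks in control 1 and 1 in control 2. In both regions the groups did not overlap.

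The largest relative difference among the regions called in all 4 libraries lay further into MTUS1 (chr8:17612137-17616137). Only 0.647 kb (siRNA-1) and 0.583 kb (siRNA-2) was called there, against 3.72 kb in control 1 and 3.68 kb in control 2, and knockdown length was 16.6% of control length. Its summits stayed within 129 bp of each other in the 4 libraries, and what was called after knockdown was the part around them. A pair of further regions in the gene body was shorter with siRNA-1 than with siRNA-2. The region at chr8:17580612-17584854 had 1.07 kb (siRNA-1) and 2.16 kb (siRNA-2), against 4.21 kb and 4.05 kb in controls 1 and 2. A region at chr8:17557318-17559897 had no siRNA-1 peak and 0.720 kb in the siRNA-2 list, against 2.41 kb and 2.54 kb in the controls. Not every region inside the gene was shorter. One at chr8:17591232-17593036 had 1.34 kb and 1.69 kb after knockdown, against 1.61 kb and 1.04 kb in the controls, and the groups overlapped.

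**Figure D4:**
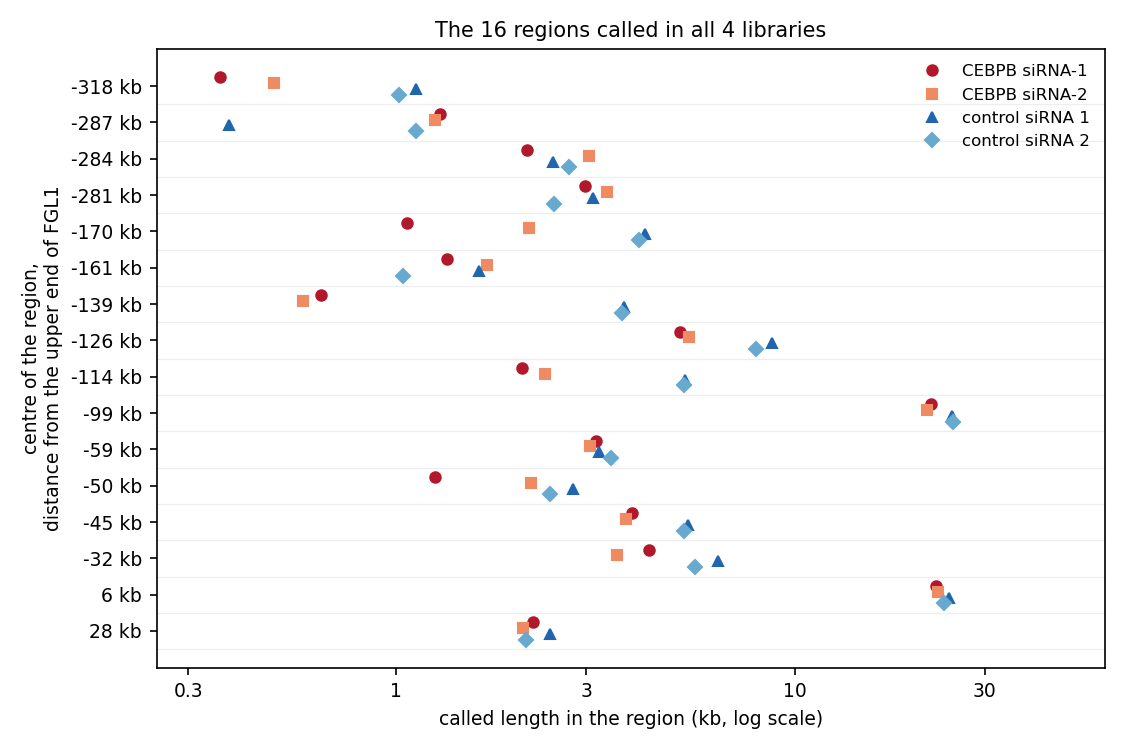
Called length in kb, on a log scale, in each of the 16 regions called in all 4 libraries, from the lower to the upper edge of the window; labels give the distance of the region's centre from the upper end of FGL1, and each library is 1 point. The knockdown points lie left of both control points in 11 regions, with the widest gap at -139 kb inside MTUS1, and right of them in 1, at -287 kb.

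Over the 16 regions called in all 4 libraries, both knockdown lengths lay below both controls in 11 and above them in 1, and 4 overlapped. Over the series these shares were 25.6% below and 26.9% above. Knockdown length was a median of 79.7% of control length in the 16 regions, from 16.6% to 169%, beside a median of 101% over the 24133 such regions of the series. The window's values are those it was picked for. The summits of the 16 regions spanned a median of 318 bp over the 4 libraries when the highest summit was compared with the lowest, and more than 11 kb in the regions at the MTUS1 and FGL1 starts.

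The strongest region between the genes was shorter after knockdown and, relative to the median peak of its list, less enriched. It (chr8:17704721-17710823) was centred 45 kb below the upper end of FGL1, downstream of the FGL1 gene as transcribed. Called length in it was 3.91 kb (siRNA-1) and 3.78 kb (siRNA-2), against 5.38 kb in control 1 and 5.26 kb in control 2. Its fold enrichment was 22.8 (siRNA-1) and 24.1 (siRNA-2), and 54.5 in control 1 and 55.2 in control 2. Fold enrichments depend on the depth of each library, which is not given, so these raw values alone cannot be compared between lists. The median fold used next depends in turn on which peaks each list holds. Set against the median fold of all peaks of the same list, the region was 3.46 and 3.62 times that median with siRNA-1 and siRNA-2, against 8.48 and 8.69 times in controls 1 and 2. The knockdown libraries lay below both controls and close to each other. The median fold of all peaks was similar in the 4 lists, at 6.59 and 6.64 after knockdown and 6.42 and 6.35 in the controls. The region stood at percentiles 90.5 and 94.1 of its list by −log10 q after knockdown, and at 97.7 and 98.5 in the controls.

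On the same scale, both knockdown values lay below both controls in 6 of the 16 regions called in all 4 libraries and above them in 2, and 8 overlapped; over the series these shares were 27.1% below and 26.9% above. Differences of similar size lay inside MTUS1. At chr8:17635723-17641548 the fold was 0.867 and 1.19 times the median after knockdown, against 2.03 and 2.23 times in the controls. At chr8:17580612-17584854 it was 0.533 and 1.21 times after knockdown, against 2.54 and 1.91 times. The region at chr8:17591232-17593036, also inside MTUS1, was the other way round, at 1.23 and 1.51 times after knockdown against 0.733 and 1.07 times.

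The groups overlapped on this scale at the starts of both genes. The FGL1 start region was 12.99 and 8.52 times the list's median fold with siRNA-1 and siRNA-2, against 13.4 and 9.42 times in controls 1 and 2. Libraries numbered 1 were higher than those numbered 2 in both treatments, and within each number the knockdown value was the lower one. At the MTUS1 start the region was 6.31 and 4.13 times the median with siRNA-1 and siRNA-2, against 5.51 and 9.78 times in the controls, and the groups overlapped. As a share of the fold at the FGL1 start in the same list, the region between the genes reached 26.6% (siRNA-1) and 42.5% (siRNA-2), against 63.2% in control 1 and 92.2% in control 2.

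**Figure D5:**
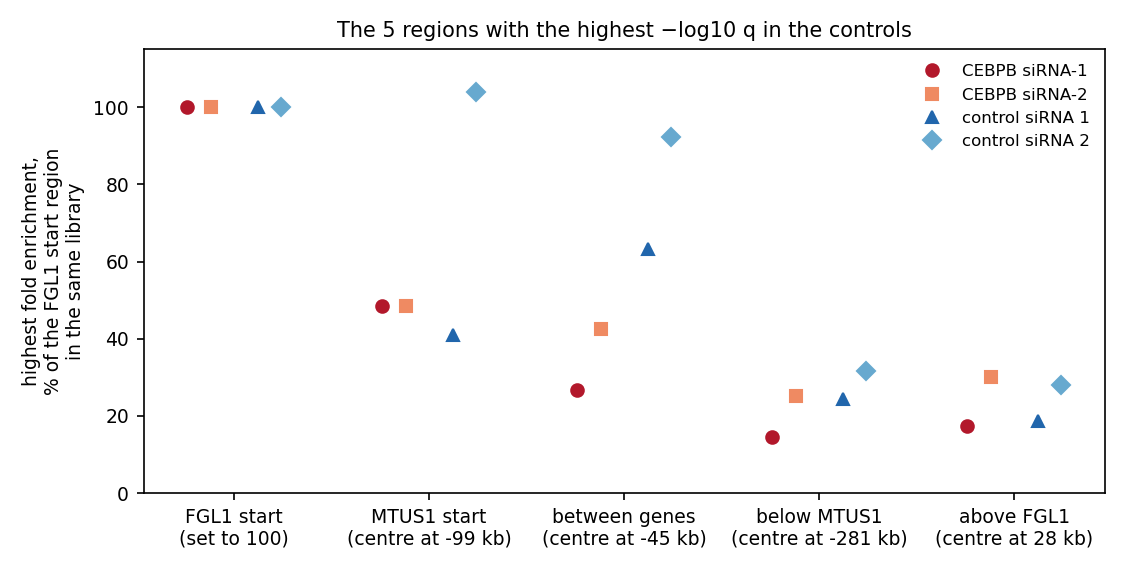
Highest fold enrichment in the 5 regions with the highest −log10 q in the controls, as a percent of the value at the FGL1 start region in the same library; each point is 1 library, with CEBPB siRNA libraries left of control libraries, and kb give the region's centre relative to the upper end of FGL1. The region between the genes lies at 26.6% and 42.5% with the siRNAs and at 63.2% and 92.2% in the controls, while in the other 3 regions the groups overlap.

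The other regions between the genes ranged from nearly equal to clearly shorter. At chr8:17692343-17695968 the lengths were 3.16 kb and 3.06 kb after knockdown and 3.22 kb and 3.45 kb in the controls. The region at chr8:17700985-17704016 had 1.25 kb and 2.18 kb after knockdown, against 2.78 kb and 2.43 kb. Across the lower end of FGL1, where its transcription ends, lay a region (chr8:17717790-17724707) with 4.299 kb and 3.58 kb called after knockdown, against 6.40 kb and 5.62 kb in controls 1 and 2. In each of these 3 regions both knockdown values lay below both controls, and in the first and the second the gap between the groups was smaller than the gap between the controls.

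Weak peaks in 2 stretches were almost confined to the controls. Above the MTUS1 start region, 25.4 kb (chr8:17666947-17692342) held 0 peaks with either siRNA, against 6 peaks over 3.21 kb in control 1 and 4 peaks over 1.92 kb in control 2. Inside FGL1, 22.4 kb between its end regions (chr8:17724708-17747146) held a single peak of 0.303 kb in the siRNA-1 list and none in the siRNA-2 list, against 10 peaks over 4.47 kb in control 1 and 3 peaks over 1.69 kb in control 2. In the FGL1 stretch the controls thus differed from each other by more than control 2 differed from the knockdown libraries.

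Weak peaks made up the difference in the number of peaks. Peaks with a −log10 q under 10 numbered 15 (siRNA-1) and 20 (siRNA-2), against 35 in control 1 and 30 in control 2. In that order they were 50%, 54.1%, 68.6% and 66.7% of the window's peaks. Over all peaks of the same lists the shares were 43.5%, 46.2%, 43.7% and 46.9%. Peaks at or above 10 numbered 15 and 17 after knockdown and 16 and 15 in the controls, so the groups overlapped. The stronger peaks were shorter, however: they covered 70.9 kb and 74.6 kb after knockdown, against 98.8 kb and 92.5 kb in the controls. The 9 regions that both siRNAs lacked were all weak, since none reached a −log10 q of 10 in the 2 controls together. Their fold enrichments ran from 3.56 to 4.83 in control 1 and from 3.34 to 5.67 in control 2. Of the 9, 2 lay inside MTUS1, 3 between the genes, 3 inside FGL1 and 1 above it. Their called lengths were 0.255 to 1.06 kb in control 1 and 0.321 to 0.619 kb in control 2. No read counts or depths come with the lists, so the absence of a weak peak is the absence of a call and not of acetylation.

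The block of 3 regions below MTUS1 was not shorter after knockdown, although the fold of its strongest region was lower. Its strongest region (chr8:17470288-17473698) had 2.97 kb and 3.38 kb called after knockdown, against 3.12 kb and 2.49 kb in the controls. Its fold, however, was 1.88 and 2.14 times the list's median after knockdown, against 3.27 and 2.98 times in the controls, without overlap. The neighbour at chr8:17467022-17470237 had 2.13 kb and 3.04 kb after knockdown, against 2.48 kb and 2.71 kb. In length both overlapped between the groups. The third (chr8:17465330-17466969) was the 1 region of the window with both knockdown lengths above both controls, at 1.29 kb and 1.25 kb against 0.381 kb and 1.12 kb. Its fold enrichments were 10.7 and 9.05 with siRNA-1 and siRNA-2, and 3.90 and 4.71 in controls 1 and 2. In each of these lists the median peak had a fold between 6.35 and 6.64, so the region stood above its list's median after knockdown and below it in the controls. Further out, 2 small regions were shorter. One (chr8:17434215-17435425) had 0.360 kb and 0.494 kb after knockdown, against 1.12 kb and 1.01 kb in the controls. The other (chr8:17460297-17461546) had no siRNA-1 peak and 0.901 kb in the siRNA-2 list, against 1.23 kb and 1.18 kb in the controls.

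Above the FGL1 start, 1 region (chr8:17779268-17781893) was alike in all lists. It had 2.202 kb and 2.08 kb called after knockdown and 2.44 kb and 2.12 kb in the controls, with overlapping groups. Its fold was 2.26 and 2.57 times the list's median after knockdown and 2.495 and 2.63 times in the controls. The remaining 118 kb up to the upper edge of the window held no peak in any library.

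Joined across gaps of up to 12500 bp, the acetylation formed a cluster over the MTUS1 start that was shorter after knockdown. It spanned 53.6 kb (siRNA-1) and 53.5 kb (siRNA-2), against 69.6 kb in control 1 and 67.3 kb in control 2. Most of this difference lay at the upper end. The cluster ended at 17666285 and 17666318 with siRNA-1 and siRNA-2, against 17679230 and 17678460 in controls 1 and 2. Above the MTUS1 start region the control clusters held only weak peaks, each with a −log10 q under 10, so this part of the span rests on weak calls. Around FGL1 the number of clusters differed between the controls. In control 1 a single cluster of 89.4 kb ran from 17692353 to 17781703 across the gene. In control 2 the same stretch was already in 2 clusters, of 38.1 kb and 38.7 kb. After knockdown it was in 2 clusters too, of 31.8 and 40 kb in the siRNA-1 list and of 30.6 and 34.0 kb in the siRNA-2 list. The single long cluster at FGL1 is thus seen in control 1 only. Against control 2, both clusters were shorter with siRNA-2, and the lower one was shorter with siRNA-1. The upper siRNA-1 cluster spanned more than that of control 2, but it began at a peak of 0.303 kb with a −log10 q of 1.81. Its called length was 25.1 kb, against 27.5 kb in the upper cluster of control 2. At MTUS1 both siRNAs were shorter than both controls.

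In which bases were called, the knockdown libraries matched each other here as closely as the controls did. The Jaccard index, the bases called in both lists over those called in either, was 0.816 between the knockdown libraries and 0.797 between the controls in the window. Between a knockdown library and a control it ran from 0.622 to 0.693. Over the whole series the knockdown libraries shared less, at 0.659, against 0.765 between the controls, and the mixed pairs ran from 0.574 to 0.613. The window was picked because both knockdown lists were shorter there. Higher values within the groups than between them go with that choice, and nothing further is read from them.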

How the data were processed

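The data are 4 H3K27ac peak lists, 1 per library, as deposited by the authors. The submitters' processing notes name MACS2 2.2.7.1 for the peaks, with BWA 0.7.17, SAMtools 1.7.0 and the build hg19; their options, and any role of the inputs, were details not given in the sources used here. The 4 input libraries were not analysed here. The deposited columns used were start, end, summit, fold enrichment (a linear ratio) and −log10 q; the deposited −log10 p and the deposited score, which was 10 times the −log10 q in over 99.9% of peaks, were not used. No depth is given, so precision rests on the spread of 2 libraries per group.

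On chromosomes 1 to 22 and X, peaks of the lists were joined at an overlap of 1 bp or more, and lengths were counted in Python 3.11.15 with pandas 2.3.3, checked on simulated lists. Gene extents are hg19, to the nearest 1 kb. Regions with values are those longest or strongest in the controls, strongest after knockdown, under 0.5 of control length, or within 2.5 kb of a gene end; others were named after their values were seen. The window, lists and rules were chosen with earlier results of these data known. No test was made: the window was picked on this contrast, and the smallest exact permutation p for 2 against 2 is 0.333. Alternatives were a −log10 q of 10, reciprocal overlap of 50%, stitching within 12500 bp, equal called length, each library left out, a trimmed window and a replicate block.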

Additional observations from a re-analysis of the deposited data

How the results depend on the processing

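Called length in the window, inside MTUS1, between the genes and inside FGL1 was shorter after knockdown under every alternative run. For a −log10 q of 10 or more, the knockdown minus control differences were -22.9 kb in the window, -3.96 kb between the genes and -1.69 kb inside FGL1, and the number of peaks reversed to a difference of 0.5, against -14.5 with all peaks. That setting gave 2 regions called in both controls and with neither siRNA, 1 called with both siRNAs and in neither control, 0 under 0.5 of control length, and 10 with both knockdown lengths below both controls, where all peaks gave 9, 0, 3 and 23. The last count, 23 of 56 merged regions, takes in the 9 regions called with neither siRNA. Its share over all merged regions of the series was not computed, so nothing is read from it under any setting. Among regions called in all 4 libraries it was 11 of 16, where the share over the series was 25.6%. For the other counts of regions, shares over the series were computed with all peaks and all libraries only. Nothing is therefore read from those counts under any alternative, including those with a library left out. With equal called length, 27931 and 48216 peaks were left with siRNA-1 and siRNA-2, against 31176 and 44502 in controls 1 and 2. The lists were thus cut to unlike extents. In that order the window held 15, 37, 28 and 43 peaks, so the groups overlapped, and the difference in peaks was -9.5. Under this setting 4 regions were missing with both siRNAs and 1 was under 0.5 of control length. The difference in the window was -31.2 kb, from 70.9 and 82.6 kb against 108.0 and 107.9 kb. Stitching within 12500 bp, which leaves fewer and longer units by construction, gave 0 such missing regions, 1 under 0.5 of control length and 4 with both knockdown lengths below both controls. Reciprocal overlap of 50%, which splits regions whose peaks differ in width, gave 6 regions called with both siRNAs and in neither control and 0 under 0.5 of control length. The cause was not tested elsewhere.

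Without each library in turn, the difference in the window ranged from -38.0 to -28.5 kb. It ranged from -20.7 to -17.0 kb inside MTUS1, from -8.89 to -6.34 kb between the genes, from -5.88 to -2.97 kb inside FGL1 and from -6.05 to -3.37 kb in the flanks. The difference in peaks ranged from -18 to -11. Regions called in both controls and with neither siRNA numbered 10 to 30, with 22 without control 1 and 30 without control 2, since 1 control then suffices. Regions called with both siRNAs and in neither control numbered 0 to 2, those under 0.5 of control length 2 to 4, and those with both knockdown lengths below the controls 24 to 46, with 35 without control 1 and 46 without control 2.

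With a replicate block by the number in the labels, the mean of the differences is -33.2 kb by construction, from 1 pair at -40.5 kb and 1 at -25.9 kb; the labels do not say that the numbers pair the libraries. The alternatives for the flanks were chosen after seeing the data. Depth is not given for these lists, which limits what a missing weak peak can show.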
